A study of Mus musculus with 30 samples.

Results

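Cell cultures of mouse leg muscle at 12 h were compared with the same kind of culture at 0 h. Samples were assigned by the hour in their titles, and 12 of the 30 arrays of the series belong to the comparison. They are 3 replicates at 12 h and 3 at 0 h, each measured on both chips, A and B, of an Affymetrix oligonucleotide set. The other 18 arrays, at 4, 24 and 48 h, entered only the estimate of the spread and the placing of 12 h within the time course. The labels give the tissue, the hour, the chip and the replicate number. The sources used here do not give strain, age, medium, treatment or what starts the clock at 0 h. Nor do the labels tell whether the replicates were separate cultures or whether an A and a B array of 1 number shared an RNA, so a p-value here speaks of array-to-array spread, part of which may be technical.

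Skeletal muscle cells are made from myoblasts, dividing cells that carry the transcription factors Myod1 and Myf5. On differentiation they leave the cell cycle, switch on Myog and the Mef2 factors, fuse into multinucleate myotubes, and fill these with sarcomeres, the repeating units of actin and myosin that contract. Calcium released from the sarcoplasmic reticulum starts each contraction, and Id proteins and growth factor signals hold myoblasts back from this programme. In RNA of whole cultures, fewer cells of a type and less of an RNA per cell cannot be told apart.

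Markers of skeletal muscle were bright at both hours. The intensities of the 12 muscle markers summed to between 97570 and 103100 in the 12 h arrays of the A chip, against 72200 to 83090 in the 0 h arrays. Myog, Myod1, Des, Chrna1, Acta1 and Myl1 all had means of 5042 or more at both hours. In 9 lists of markers of other cell types, 0 genes were called between the hours, and most lay below the intensity range that was tested. Of 10 endothelial markers, for example, 3 were bright enough to be tested, and the list summed to between 523.5 and 759.3 at 12 h, against 477.9 to 576.1 at 0 h. Tie1 and Vwf were close to 0 in all 6 arrays. Fibroblast markers summed to between 3160 and 4022 at 12 h, against 3950 to 4107 at 0 h, most of it from Col3a1. Smooth muscle and pericyte markers summed to between 18810 and 23740 at 12 h, against 15350 to 23240 at 0 h, most of it from Acta2 and Des, which muscle cultures also express. Cartilage and tendon markers summed to between 1191 and 1493 at 12 h, against 1354 to 2476 at 0 h. Among them Col2a1, a cartilage collagen, had 297.5, 489.7 and 355.4 at 12 h, against 1055.9, 1493.8 and 589.3 at 0 h, so that its groups did not overlap (change -1.32, adjusted p = 0.0866, not called). The part of other cells in the changes below was not tested.

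Replicate 3 stood apart from replicates 1 and 2 at both hours, so each comparison was fitted in limma without and with replicate 3 as a batch term. Without the term, 0 of 13576 tested probe sets passed an adjusted p of 0.05 on A (0% called, 890 at an unadjusted p under 0.05), and 1 of 13507 passed on B (0.0074% called, 858 unadjusted). With the term, here called the batch fit, 143 were called on A (1.05%), 74 of them higher and 69 lower at 12 h. On B 44 were called (0.326%), 16 higher and 28 lower. Below, "rose" and "fell" stand for calls of the batch fit, and values of a change are log2 differences, 12 h minus 0 h, of intensity plus a small constant. With the replicate number as a block in place of the batch term, 96 were called on A and 24 on B. Replicates 1 and 2 on their own gave 568 on A and 84 on B. The smallest two-sided p that an exact permutation test of 3 arrays against 3 can give is 0.1, so the calls rest on the spread pooled over probe sets and hours.

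These counts hung on single arrays. On A the batch fit called 15, 23 and 128 probe sets without the 12 h array of replicate 1, 2 or 3, and 35, 17 and 330 without the 0 h array of replicate 1, 2 or 3. On B the counts in the same order were 5, 8 and 19, and 8, 2 and 37. All 143 A calls and all 44 B calls kept their sign whichever array was left out. Only 12 of the A calls and 2 of the B calls stayed below 0.05 each time. They were Vegfc on both chips and, on A, Smoc2, Nfkbia, Asb4, Foxc2, Kif22, Pdk4, Klf5, Csrp3, Ankrd2, Fgf21 and 1 unnamed probe set. Any other call named below was lost without at least 1 array.

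The called changes were moderate in size and the same in direction in all 3 same-numbered pairs of arrays. On A the rises had a median of 0.84 (0.45 to 1.71), with 21 of 74 at least 2-fold, and the falls a median of -0.81 (-1.72 to -0.54), with 15 of 69 at least 2-fold. On B the rises had a median of 1.02 and the falls one of -0.91. For 64 of the 74 rises on A all 12 h arrays lay above all 0 h arrays, a pattern that 5.84% of all tested A probe sets showed. Among the 69 falls on A, 36 had all 12 h arrays below all 0 h arrays, against 5.3% of all tested A probe sets. On B the numbers were 12 of 16 rises (7.67% of all) and 16 of 28 falls (5.26% of all). The calls were made on these same arrays, so separate groups and a shared direction are largely built into them and give no separate support. With each gene represented by its brightest probe set, 115 of 12446 genes were called (0.924%), 60 higher (0.482%) and 55 lower (0.442%), and the median change of all genes was -0.008. Where a list of genes is described, its count and median stand against these values. In the fit without the batch term 0 genes of any of the 44 lists were called.

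Vegfc, which encodes a growth factor best known for lymphatic vessels, had the smallest adjusted p on either chip. On the B chip its first probe set had 623.7, 474.6 and 308.8 in the 12 h arrays of replicates 1, 2 and 3, against 2331.9, 2087.7 and 1463.1 in the 0 h arrays. The second B probe set had 2928.2, 2740.5 and 2240.3 at 12 h, against 9801.7, 10486 and 6648.6 at 0 h, and the A probe set 141.2, 191.9 and 91.5 at 12 h, against 537.4, 527.7 and 342.5 at 0 h. In all 3 the 12 h arrays lay far below the 0 h arrays, and replicate 3 was lowest within each hour. The changes were -1.97 ± 0.168 and -1.73 ± 0.146 on B (standard errors, adjusted p = 3.07e-05 for both) and -1.56 ± 0.161 on A (adjusted p = 0.000411). The first B probe set was also the only one called without the batch term (adjusted p = 0.0369). Without that term it was lost when 1 of 4 arrays was left out, those of 0 h replicate 1 or 2 or of 12 h replicate 2 or 3. Of the 13 tested vessel growth factors and their receptors, Vegfc was the only 1 called, and the median of the list was 0.12. Kdr, a receptor for VEGF ligands, had 184.8 ± 53.49 at 12 h, against 135.3 ± 4.964 at 0 h (SD, n = 3 each, adjusted p = 0.538), and Pdgfb had 578.1 ± 264.1 at 12 h, against 745.2 ± 315.8 at 0 h (adjusted p = 0.254).

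Among other secreted factors, Fgf21 rose most. Fgf21 encodes a hormone that many tissues make under nutrient or mitochondrial stress. It had 2444.1, 2575.6 and 832.3 at 12 h, against 681.6, 638.5 and 336.9 at 0 h, a change of 1.67 ± 0.192 (adjusted p = 0.000501). Every 12 h array was above every 0 h array, although replicate 3 was low at both hours. Smoc2, a calcium-binding matrix protein, fell in both of its probe sets. The dimmer one had 82.9, 87.2 and 175.3 at 12 h, against 367.7, 468.4 and 451.4 at 0 h (change -1.72 ± 0.234, adjusted p = 0.00267), and the brighter one fell by 1.70 (adjusted p = 0.00869). Igf1, a growth factor that promotes muscle growth, rose on B, where it had 1932.3, 1529.2 and 1105.3 at 12 h, against 814.1, 860.4 and 463.6 at 0 h (change 1.05, adjusted p = 0.03, lost whichever array was left out, up to 0.168). Its brightest A probe set had a similar change of 0.92 that was not called (adjusted p = 0.0598). None of the 12 tested genes of the insulin-like growth factor system was called by its representative probe set, and their median was 0.20. Igf2, the abundant fetal ligand, had 12030 ± 2277 at 12 h, against 9560 ± 1942 at 0 h (adjusted p = 0.256).

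**Figure D1:**
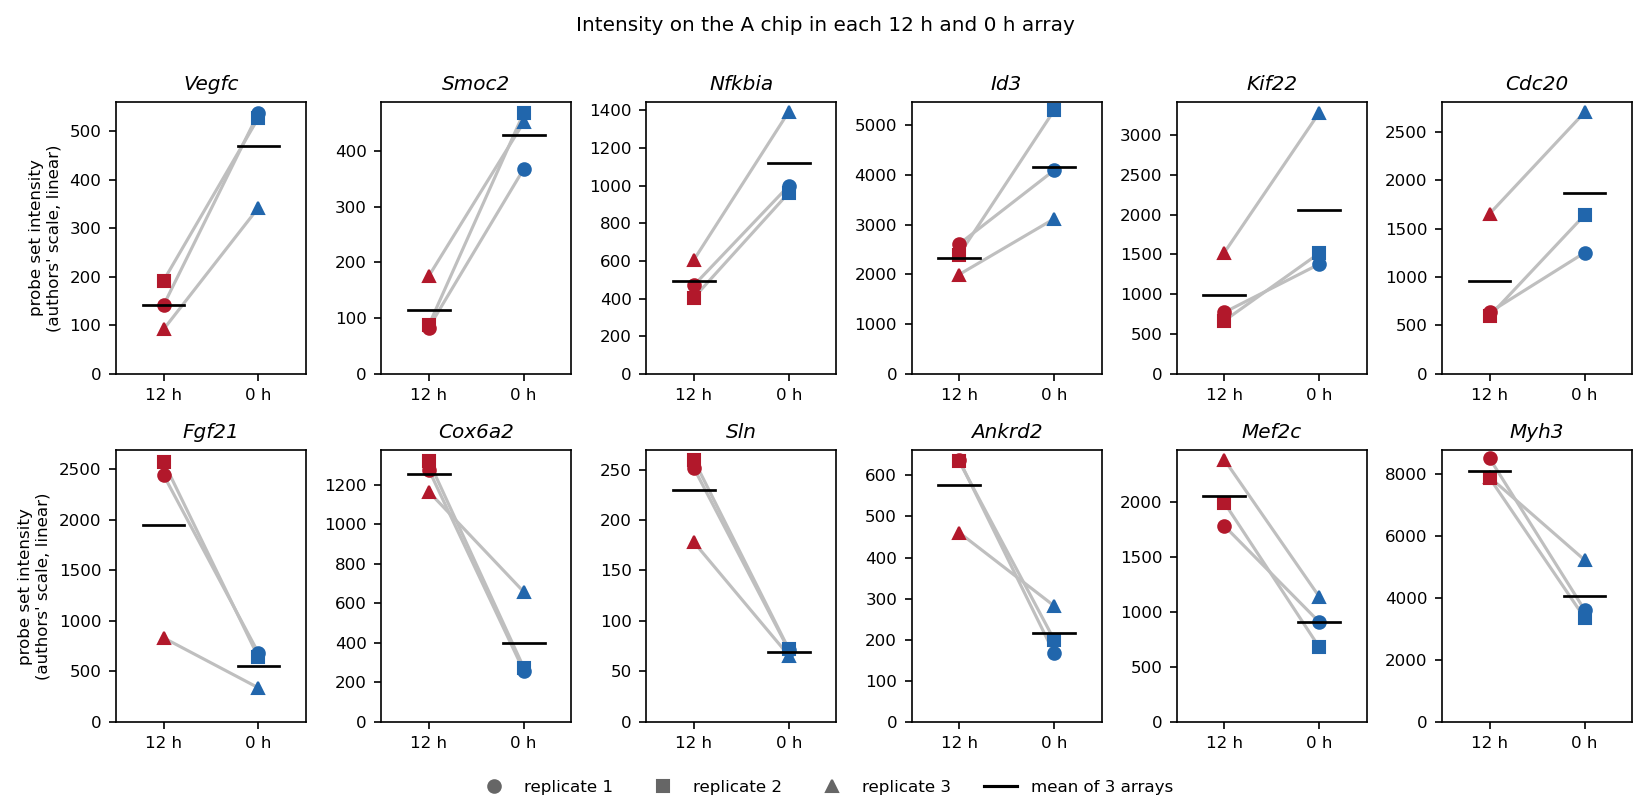
Probe set intensity (linear, the authors' scale) on the A chip for 12 genes called in the batch fit, in the 12 h arrays (red, left) and the 0 h arrays (blue, right); grey lines join arrays with the same replicate number and black bars are means of 3 arrays. The lines of each gene run in 1 direction, and replicate 3 (triangles) is shifted as a whole for several genes, such as Kif22 and Cdc20.

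Of the muscle transcription factors, the Mef2 factors, which act with Myog and Myod1 on muscle genes, had the higher values at 12 h. Mef2a rose, with 6094.5, 5875.8 and 3559.3 at 12 h, against 4461.6, 4204.2 and 2649.4 at 0 h (change 0.45 ± 0.0929, adjusted p = 0.028). Its arrays overlap because replicate 3 was low at both hours, and each same-numbered pair is higher at 12 h. Of its 6 probe sets 1 more was called (0.77, adjusted p = 0.00794), and the other 4 had changes of 0.32 to 0.66, not called. All 5 probe sets of Mef2c had every 12 h array above every 0 h array, with changes of 0.72 to 1.17, and 1 of the 5 was called. That probe set had 1785.5, 1997.6 and 2389.1 at 12 h, against 909.8, 679.5 and 1140.1 at 0 h (adjusted p = 0.0428, and 0.0549 with the replicate number as a block). Mef2d had 1414 ± 228 at 12 h, against 960.4 ± 32.02 at 0 h (adjusted p = 0.0545). Of the 8 factors tested 1 was called, with a list median of 0.13. The first Mef2a call and that of Mef2c were lost without any 12 h or 0 h array of replicate 1 or 2 (adjusted p up to 0.14 and 0.22), and the second Mef2a call without the 12 h array of replicate 1 or the 0 h array of replicate 2 (up to 0.0643). The Mef2c call was also lost without the 12 h array of replicate 3.

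The 4 myogenic regulators themselves were not called. Myog, the differentiation factor, had 11990 ± 786.4 at 12 h, against 10320 ± 675.5 at 0 h (adjusted p = 0.345), and Myod1 had 7784 ± 559.9 at 12 h, against 7725 ± 1847 at 0 h (adjusted p = 0.923). Myf5, a factor of dividing myoblasts, had 215, 180 and 124.7 at 12 h, against 518.4, 314 and 278.9 at 0 h, so that its groups did not overlap, but its change of -0.96 ± 0.286 was not called (adjusted p = 0.107). Myf6 was dim, with 116.8 ± 46.31 at 12 h, against 130 ± 64.5 at 0 h (adjusted p = 0.896). Cdkn1a, the inhibitor of cyclin-dependent kinases that is high in many differentiating cells, had 10900 ± 1368 at 12 h, against 9002 ± 1016 at 0 h (adjusted p = 0.24). Id proteins bind the partners of the myogenic factors and keep them off DNA. Id3 fell, with 2611.1, 2397 and 1997.5 at 12 h, against 4094, 5299.9 and 3118.6 at 0 h (change -0.80 ± 0.128, adjusted p = 0.00764, up to 0.0643 without the 12 h array of replicate 1 or 2 or the 0 h array of replicate 2). Id1 had 3313 ± 1116 at 12 h, against 4803 ± 1032 at 0 h (adjusted p = 0.0665), and Id2 had 906.2 ± 240.3 at 12 h, against 1500 ± 198.7 at 0 h (adjusted p = 0.105). Among 18 tested genes of myoblasts and the Notch pathway, Id3 was the 1 that fell. Spry1, an inhibitor of growth factor signalling, was the 1 that rose (change 0.83, adjusted p = 0.0466, 0.0563 with the block, and lost whichever array was left out, up to 0.207). The median of that list was -0.08.

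Sarcomere genes had higher means at 12 h almost without exception. Of 49 tested genes in the 4 sarcomere lists, 48 had a higher mean at 12 h and 8 were called, all of them higher. With the replicate number as a block 4 of the 8 were called. The medians were 0.73 for 9 developmental isoforms (1 called), 0.72 for 8 adult fast isoforms (2 called), 1.00 for 4 slow and cardiac isoforms (1 called) and 0.59 for 28 shared components (4 called). Myh3, the embryonic myosin heavy chain, had 8521.7, 7885.7 and 7916 at 12 h, against 3623.5, 3366.6 and 5236.1 at 0 h (change 1.01 ± 0.187, adjusted p = 0.0157). The 12 h arrays stand close together well above the 0 h arrays, of which replicate 3 is the highest. Myh1, an adult fast myosin, had 3693.9, 3013.2 and 3720.3 at 12 h, against 1289.3, 1286.3 and 2478 at 0 h (change 1.10, adjusted p = 0.0495, and 0.0678 with the block). The fast troponin Tnnt3 had 5316 ± 520.1 at 12 h, against 2985 ± 562.1 at 0 h (change 0.84, adjusted p = 0.0466, and 0.0646 with the block). Mybpc1, the slow myosin-binding protein C on B, had 3564.1, 2651.8 and 1525.8 at 12 h, against 1237.3, 1225 and 889 at 0 h (change 1.10, adjusted p = 0.0401, and 0.0533 with the block). The exception to the direction was Tpm3, with 4073 ± 1536 at 12 h, against 4382 ± 406.6 at 0 h (adjusted p = 0.65), and another probe set of Tpm3 had a change of 0.26. Acta1, skeletal actin, had 14460 ± 703 at 12 h, against 10090 ± 1678 at 0 h, a change of 0.53 that was not called (adjusted p = 0.0773).

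Proteins that hold the sarcomere together or sense its strain gave the firmest muscle calls. Csrp3, a Z-disc protein, had 961.3, 929.1 and 1197.3 at 12 h, against 415.8, 469.8 and 748.2 at 0 h (change 0.92 ± 0.123, adjusted p = 0.00257, and at most 0.0267 whichever array was left out). Ankrd2, a stretch-responsive ankyrin repeat protein, had 637.5, 634.2 and 460.9 at 12 h, against 167.5, 200.2 and 282.5 at 0 h (change 1.32 ± 0.195, adjusted p = 0.00437, and at most 0.0459 whichever array was left out). The gap between the hours was narrower in replicate 3 for both, but no array crossed it. Tpm2, a tropomyosin, rose by 0.62 (adjusted p = 0.0141). These 3 and Cryab, described with the heat shock proteins, are the 4 calls among the shared components. On B, Myom3, a component of the M-band that was in none of the lists, had 2602.5, 2222.4 and 1850.8 at 12 h, against 1053.1, 1044 and 708.1 at 0 h (change 1.21 ± 0.172, adjusted p = 0.009). Titin, the giant spring of the sarcomere, was measured by 6 tested probe sets, of which 1 on B, not the one that stands for the gene in its list, was called (change 1.06, adjusted p = 0.0248). The other 5 ranged from -0.07 to 0.52, none called, so the gene as a whole was not resolved. Without the 12 h array of replicate 1 the calls of Myh3, Myh1, Tnnt3, Mybpc1, Tpm2, Myom3 and titin were all lost, with adjusted p up to 0.231 over the 6 arrays left out in turn. Those of Myh1, Tnnt3 and Mybpc1 held only without the 0 h array of replicate 3.

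**Figure D2:**
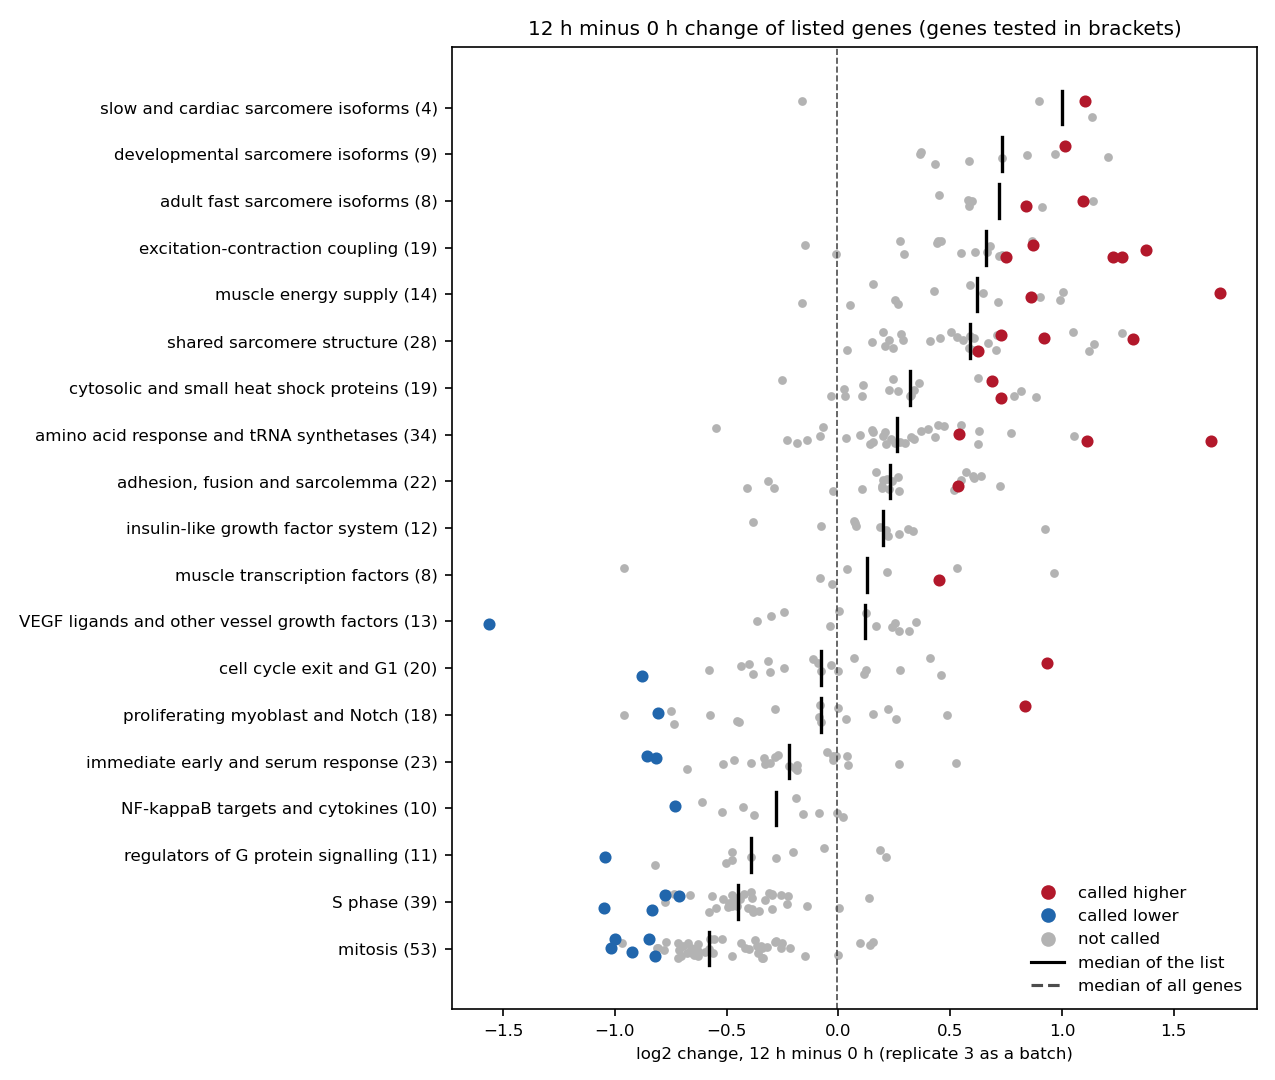
Log2 change, 12 h minus 0 h, from the batch fit for the tested genes of 19 lists (1 probe set per gene; each point is a gene, red called higher, blue called lower, grey not called; black bars are list medians and the dashed line is the median of all genes, -0.008). The 4 sarcomere lists are among the 6 with the highest medians, at 0.59 to 1.00, and the mitosis and S phase lists at the bottom with -0.58 and -0.45.

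Genes of excitation-contraction coupling, which carry the electrical signal to calcium release, were also mostly higher. Of 19 tested, 17 had a higher mean at 12 h, 5 rose (3 with the block) and 0 fell, with a median of 0.66. Sln, sarcolipin, which regulates the calcium pump of the sarcoplasmic reticulum, had 251.2, 259.3 and 177.9 at 12 h, against 71, 71.9 and 65.6 at 0 h (change 1.38 ± 0.256, adjusted p = 0.0158). Casq2, a calsequestrin that stores calcium there, had 4088.6, 4023.2 and 4698.8 at 12 h, against 1381.2, 1290.7 and 2992.7 at 0 h (change 1.27, adjusted p = 0.0446, and 0.0633 with the block). Trdn, triadin, which ties calsequestrin to the release channel, had 213.3, 346.7 and 197.4 at 12 h, against 112.2, 53.5 and 109 at 0 h (change 1.23, adjusted p = 0.0484, and 0.0535 with the block). The 12 h and 0 h arrays of all 3 genes were fully separate. Atp2a1 and Atp2a2, the fast and slow calcium pumps, rose by 0.87 (adjusted p = 0.0305) and 0.75 (adjusted p = 0.0184) in their brightest probe sets, while another of Atp2a2 had -0.18. Asph was counted as not called (0.68, adjusted p = 0.117), but another of its probe sets rose by 1.03. That call had an adjusted p of 0.0268 (0.039 with the block, and up to 0.168 with 1 array left out). Left-out arrays of replicates 1 and 2 ended the calls of Sln, Casq2 and Trdn, with adjusted p up to 0.115, 0.223 and 0.242, and likewise those of Atp2a1 and Atp2a2, up to 0.163 and 0.121. All of these calls but that of Sln were also lost without the 12 h array of replicate 3.

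Of 14 tested genes of muscle energy supply, 13 had a higher mean at 12 h and 2 rose, with a median of 0.62. Cox6a2, a muscle-specific subunit of cytochrome oxidase, had the largest rise on A, with 1275.3, 1319.7 and 1164.1 at 12 h, against 258.8, 275 and 657.9 at 0 h (change 1.71 ± 0.304, adjusted p = 0.0139). The 12 h values lie close together, and at 0 h replicate 3 was the highest. Pygm, muscle glycogen phosphorylase, had 751.6, 740.6 and 545.2 at 12 h, against 329.2, 363.2 and 379.3 at 0 h (change 0.86 ± 0.144, adjusted p = 0.00935). Ckm, muscle creatine kinase, had 1667.7, 1486.4 and 2346.5 at 12 h, against 675.9, 756 and 1338.1 at 0 h, with no overlap, but was not called (change 1.00 ± 0.264, adjusted p = 0.0705). Without a 12 h or 0 h array of replicate 1 or 2 the calls of Cox6a2 and Pygm were lost (adjusted p up to 0.114 and 0.0675).

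Promoters of 2 called muscle genes are given here for their E-boxes, since CAGCTG is a form of E-box that Myod1 and Myog are known to favour. They are the 250 bases before the annotated start in RefSeq, build GRCm38.p6, for Atp2a1 (chr7:126463074-126463323, minus strand) and Pygm (chr19:6384158-6384407, plus strand), with CAGCTG in capitals.
Atp2a1: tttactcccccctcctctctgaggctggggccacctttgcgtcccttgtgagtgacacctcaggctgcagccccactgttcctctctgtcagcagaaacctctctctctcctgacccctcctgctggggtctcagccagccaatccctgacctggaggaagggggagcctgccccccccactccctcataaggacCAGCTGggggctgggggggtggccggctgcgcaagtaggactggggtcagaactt
Pygm: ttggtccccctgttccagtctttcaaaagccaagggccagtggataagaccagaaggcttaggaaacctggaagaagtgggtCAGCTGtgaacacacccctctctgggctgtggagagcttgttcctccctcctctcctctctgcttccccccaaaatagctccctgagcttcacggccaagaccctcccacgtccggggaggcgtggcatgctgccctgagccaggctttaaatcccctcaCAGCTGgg
The motif reads the same on both strands. It lies within 250 bases before a start in 16 of 51 genes called higher by any probe set that have a listed promoter (31.4%), in 13 of 64 called lower (20.3%), and in 1475 of 10060 tested genes (14.7%). Pygm holds it at 2 places and Atp2a1 at 1, and they are shown because they hold it. Of other muscle genes called higher, Mybpc1 and Tpm2 hold it in this window. Myh3, Myh1, Csrp3, Ankrd2, Casq2, Ttn, Myom3, Mef2a and Mef2c do not. A match of letters is a description and says nothing of binding in these cultures.

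At the muscle membrane fewer genes were called. Of 22 tested genes of adhesion, fusion and the sarcolemma, 18 had a higher mean and 1 rose, with a median of 0.23. That gene was Bin1, which shapes T-tubules, with 6712.8, 6627.4 and 6340.2 at 12 h, against 4933.8, 4683.9 and 3988.9 at 0 h (change 0.53, adjusted p = 0.0396, 0.0577 with the block, and up to 0.187 when 1 of 5 arrays was left out). The cell adhesion molecule Ncam1 had 1887 ± 118.6 at 12 h, against 1136 ± 143 at 0 h (adjusted p = 0.0623), and Mymk, the myomaker of cell fusion, 7206 ± 1356 at 12 h, against 4991 ± 469.8 at 0 h (adjusted p = 0.107). Cdh2, N-cadherin, had the opposite sign, with 2828 ± 645.9 at 12 h, against 3493 ± 1039 at 0 h (adjusted p = 0.506). Chrna1, a subunit of the acetylcholine receptor, had 10600 ± 1058 at 12 h, against 9556 ± 1496 at 0 h (adjusted p = 0.563).

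Heat shock proteins and genes of the amino acid response had a few calls, all higher. Of 19 cytosolic and small heat shock proteins 17 had a higher mean and 2 rose, with a median of 0.32. Cryab, alpha-B crystallin, which protects desmin and titin in muscle, had 7803.8, 7215.4 and 5572.1 at 12 h, against 3499, 4168 and 4695 at 0 h (change 0.73, adjusted p = 0.0428, and 0.0549 with the block). Hspb8, its relative, rose in 2 of its 3 probe sets (0.86, adjusted p = 0.0231, and 0.69, adjusted p = 0.0466, and 0.0608 with the block). With the block 0 of the 2 counted were called. Of 34 genes of the amino acid response and tRNA synthetases 28 had a higher mean and 3 rose, with a median of 0.26: Fgf21, Slc7a5 and Asns. Mthfd2 was counted as not called (0.55, adjusted p = 0.134), but another of its probe sets rose by 0.92. That call had an adjusted p of 0.0268 (0.0349 with the block, and up to 0.148 with 1 array left out). Slc7a5, a carrier of large neutral amino acids, had 2096.7, 1771.2 and 2304.6 at 12 h, against 595.2, 807.3 and 1670.7 at 0 h (change 1.11 ± 0.175, adjusted p = 0.00764, and 0.0604 without the 12 h array of replicate 1). Asns, asparagine synthetase, had 4428, 4668.7 and 4893.8 at 12 h, against 2795.2, 2835.1 and 4108 at 0 h (change 0.54, adjusted p = 0.0428, and 0.0587 with the block). For both genes replicate 3 was already high at 0 h. Arrays of replicates 1 and 2, left out in turn, ended the calls of Cryab, Hspb8 and Asns (adjusted p up to 0.197, 0.231 and 0.185). Those of Cryab and Hspb8 were also lost without the 12 h array of replicate 3. Ddit4, a stress-induced inhibitor of mTOR signalling, had 826.8 ± 159 at 12 h, against 1233 ± 303.6 at 0 h (adjusted p = 0.223).

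Nfkbia, which encodes the inhibitor of NF-kappaB and is itself a target of that factor, fell in 4 of its 5 probe sets. The one with the smallest adjusted p had 470.9, 405.1 and 606.4 at 12 h, against 1000.2, 963 and 1394.5 at 0 h (change -1.13 ± 0.126, adjusted p = 0.000501). The B probe set had 2998, 3006.8 and 4826.6 at 12 h, against 6220.8, 7061.6 and 7626.7 at 0 h (change -0.97 ± 0.152, adjusted p = 0.0161). The other called ones on A changed by -0.97 (adjusted p = 0.0163) and -0.73 (adjusted p = 0.0116), with no overlap of the groups in any of the 4. The fifth, at 219 ± 47.01 at 12 h and 254.3 ± 40.32 at 0 h, was not called (adjusted p = 0.682). Of 10 tested NF-kappaB targets and cytokines 9 had a lower mean and Nfkbia was the 1 called, with a median of -0.28. Nfkb2, a subunit of the factor, had 312 ± 82.11 at 12 h, against 457 ± 90.9 at 0 h (adjusted p = 0.106). The calls at the 3 other Nfkbia probe sets were each lost without the 12 h array of replicate 1 or 2 or the 0 h array of replicate 2 (adjusted p up to 0.13).

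The promoter of Nfkbia, known for its NF-kappaB sites, is given with matches to GGGA, any 4 bases and CC on either strand in capitals (chr12:55492648-55492897, minus strand, 250 bases, RefSeq, GRCm38.p6).
Nfkbia: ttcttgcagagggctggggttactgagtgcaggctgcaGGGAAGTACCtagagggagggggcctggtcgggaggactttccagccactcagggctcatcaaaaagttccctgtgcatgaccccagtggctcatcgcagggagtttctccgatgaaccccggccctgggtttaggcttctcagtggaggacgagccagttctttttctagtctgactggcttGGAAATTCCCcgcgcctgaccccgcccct
It holds 2 matches, 1 on each strand. The motif is short and common: 25.8% of tested genes hold it in the same window, as do 28.1% of genes called lower and 29.4% of genes called higher.

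Other early response genes were mostly lower. Of 23 tested immediate early and serum response genes 19 had a lower mean and 2 fell, with a median of -0.22. Junb, an AP-1 factor, had 557.8, 607.4 and 517.5 at 12 h, against 949.9, 1109.8 and 972.9 at 0 h (change -0.82 ± 0.159, adjusted p = 0.021), and its groups were well apart. Ier3, an early response gene with a part in cell survival, had 439.7, 477.8 and 950.2 at 12 h, against 849.4, 986.2 and 1523.6 at 0 h (change -0.86 ± 0.157, adjusted p = 0.0147). Both calls were lost without a 12 h or 0 h array of replicate 1 or 2, with adjusted p up to 0.139 and 0.115. That of Junb was also lost without the 12 h array of replicate 3. Myc had 553 ± 275 at 12 h, against 783.4 ± 300.4 at 0 h (adjusted p = 0.0845), whereas Atf3, a stress-induced factor, had 222.8 ± 26.04 at 12 h, against 146.6 ± 24.95 at 0 h (adjusted p = 0.444). Among 11 tested regulators of G protein signalling, proteins that shorten the signal of G protein-coupled receptors, 9 had a lower mean and 1 fell, with a median of -0.39. The gene was Rgs4, whose brighter called probe set had 514.9 ± 256.4 at 12 h, against 1052 ± 406.3 at 0 h (change -1.05, adjusted p = 0.021), and whose dimmer one changed by -1.13 (adjusted p = 0.0446, and 0.0574 with the block), while one more had -1.01 and was not called (adjusted p = 0.109). Both Rgs4 calls were lost when any array except the 0 h array of replicate 3 was left out (adjusted p up to 0.216). Replicate 3 had less Rgs4 than the others at both hours, with 71 at 12 h, against 185.4 at 0 h, in the dimmer probe set.

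Cell division genes mostly had lower means at 12 h, with few single calls. Of 53 tested mitosis genes 50 had a lower mean at 12 h, 5 fell and 0 rose, with a median of -0.58. Of 39 tested S phase genes 37 had a lower mean, 4 fell and 0 rose, with a median of -0.45. Kif22, a chromosome-binding kinesin, had 772.5, 666.6 and 1524.1 at 12 h, against 1378.6, 1516.6 and 3282.4 at 0 h (change -1.02 ± 0.119, adjusted p = 0.000505, and at most 0.00836 whichever array was left out). Its arrays overlap, because replicate 3 at 12 h was about as bright as replicates 1 and 2 at 0 h, yet each pair is lower at 12 h. The other called members were the chromosomal passenger proteins Incenp (-0.998, adjusted p = 0.0141, in the brightest of 3 probe sets, the other 2 not called) and, on B, Cdca8 (-0.92, adjusted p = 0.0494), the proliferation marker Mki67 (-0.85, adjusted p = 0.0428, and 0.0574 with the block) and the mitotic kinase Plk1 (-0.82, adjusted p = 0.0407, and 0.0563 with the block). With the replicate number as a block 2 of the 5 were called, and on B this probe set of Cdca8 had 0.0731. Another B probe set of Cdca8 was called too, with a change of -1.2 (adjusted p = 0.0178, and 0.032 with the block). For 5 more mitosis genes, not among the 5 counted, the brightest A probe set, which stands for the gene in the list, was not called but another probe set was. Cdc20, which activates the anaphase-promoting complex, had 635.6, 596.9 and 1654.6 at 12 h, against 1251.5, 1641.5 and 2703.3 at 0 h (change -1.02 ± 0.177, adjusted p = 0.0117), against -0.72 in its brightest probe set (adjusted p = 0.0615). The spindle checkpoint kinase Bub1b, on B, had 612.7, 642.6 and 2851.1 at 12 h, against 1769.2, 2238 and 4458.7 at 0 h (change -1.27 ± 0.235, adjusted p = 0.0381), while its A probe set, at 576.6 ± 373.5 at 12 h and 748.4 ± 261.6 at 0 h, was not called (adjusted p = 0.201). The mitotic kinesin Kif2c fell in 1 of 3 probe sets (-1.15, adjusted p = 0.0168), and the other 2 had -0.73 (adjusted p = 0.0553) and -0.60 (adjusted p = 0.0691). Racgap1, a regulator of cytokinesis, fell in its dimmer probe set (-0.90, adjusted p = 0.0231) and had -0.28 in the brighter one (adjusted p = 0.455). The probe sets of Tacc3, a spindle protein, differed in sign: the dimmest fell by 0.81 (adjusted p = 0.0461, and 0.0652 with the block), and the other 2 had 0.48 (adjusted p = 0.598) and 0.14 (adjusted p = 0.838). Apart from Kif22, each of these calls was lost without the 12 h array of replicate 1 or 2 or the 0 h array of replicate 2, with adjusted p up to 0.217. That of Mki67 held only without the 0 h array of replicate 3.

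On the S phase side, Pola1, the catalytic subunit of DNA polymerase alpha, had 103.1, 57.5 and 232.9 at 12 h, against 253.5, 198.8 and 383.8 at 0 h (change -1.05 ± 0.232, adjusted p = 0.0419, and 0.0528 with the block). Rrm2, a subunit of the reductase that makes deoxynucleotides, fell in all 3 of its probe sets, and the brightest had 2460.4, 2113.6 and 3637.1 at 12 h, against 4077.1, 4270.8 and 4829.7 at 0 h (change -0.71, adjusted p = 0.0288). Uhrf1, which maintains DNA methylation, had 242.1, 269.3 and 936.9 at 12 h, against 563.5, 538.3 and 1293.2 at 0 h (change -0.84, adjusted p = 0.0448, and 0.0633 with the block). Replicate 3 again had the highest value within each hour for these 3 genes. The fourth call of the list was, on B, Gins2, a subunit of the complex that activates the replicative helicase, with 1152.6, 974.8 and 3339.9 at 12 h, against 1695.9, 2340.4 and 4979 at 0 h (change -0.77 ± 0.156, adjusted p = 0.0498, lost whichever array was left out). With the block 1 of the 4, Rrm2, was called, and Gins2 had 0.073. The helicase subunits Mcm3, Mcm5 and Mcm6 were counted as not called, but each fell in 1 other probe set. The change was -0.87 for Mcm3 (adjusted p = 0.0497, and 0.0678 with the block) and -0.77 for Mcm6 (adjusted p = 0.0347). For Mcm5 on B it was -0.91 (adjusted p = 0.0436, and 0.0538 with the block), while another B probe set of Mcm5 had 0.80 (adjusted p = 0.422). Hmgb2 and Donson were in none of the lists. Hmgb2, a chromatin protein of dividing cells, fell too, with 319.7, 329 and 1328.2 at 12 h, against 972.9, 986.7 and 1670.9 at 0 h (change -1.12, adjusted p = 0.028). Donson, a replication factor, had 143.6, 112.5 and 170.4 at 12 h, against 334.5, 225.3 and 414.9 at 0 h (change -1.02, adjusted p = 0.0288). Among 20 genes of G1 and cell cycle exit 1 rose and 1 fell, with a median of -0.08. Cdkn1c, an inhibitor of cyclin-dependent kinases, had 4656.1, 4416.4 and 1958.9 at 12 h, against 2592.2, 2247.7 and 963.5 at 0 h (change 0.94, adjusted p = 0.0466, and 0.0646 with the block), and Rbl1, a pocket protein that is high in cycling cells, fell by 0.88 (adjusted p = 0.0428, and 0.0608 with the block). Ccnd1, cyclin D1, had 2793 ± 525 at 12 h, against 3631 ± 547.5 at 0 h in its brightest probe set (adjusted p = 0.155), and 1 of its 2 dimmer ones was called (-0.68, adjusted p = 0.0446, and 0.0574 with the block). All of these calls, from Pola1 to Ccnd1, were lost without the 12 h array of replicate 1 (adjusted p over the left-out arrays up to 0.23). Those of Pola1, Donson, Mcm3, Mcm6 and Ccnd1 held only without the 0 h array of replicate 3. That of Mcm5 held only without the 0 h array of replicate 1, and that of Cdkn1c was lost whichever array was left out.

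The changes of the division genes were smaller in the pair of replicate 3, in which most of the called ones were brighter at both hours. The median change of the 53 mitosis genes was -0.64 and -0.74 in the pairs of replicates 1 and 2, and -0.20 in that of replicate 3, with 50, 51 and 49 genes lower. For the 39 S phase genes the medians were -0.49, -0.51 and -0.32, with 37, 37 and 36 lower. For the 28 shared sarcomere components the medians were 0.72, 0.65 and 0.47. The median over all 12446 genes was 0.01, -0.01 and -0.03 in the 3 pairs. These are values of 3 pairs of arrays and their differences were not tested as a list.

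Promoters of Cdc20 (chr4:118437344-118437593, minus strand) and Kif22 (chr7:127042421-127042670, minus strand) are shown for the 2 short elements that cell cycle promoters are known for, the CHR element TTTGAA and the CCAAT box, on either strand and in capitals (250 bases before the start, RefSeq, GRCm38.p6).
Cdc20: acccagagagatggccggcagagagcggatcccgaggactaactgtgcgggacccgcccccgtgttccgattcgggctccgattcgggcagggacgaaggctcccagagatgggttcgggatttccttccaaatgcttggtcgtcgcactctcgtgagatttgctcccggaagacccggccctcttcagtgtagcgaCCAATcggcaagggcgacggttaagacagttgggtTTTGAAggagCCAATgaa
Kif22: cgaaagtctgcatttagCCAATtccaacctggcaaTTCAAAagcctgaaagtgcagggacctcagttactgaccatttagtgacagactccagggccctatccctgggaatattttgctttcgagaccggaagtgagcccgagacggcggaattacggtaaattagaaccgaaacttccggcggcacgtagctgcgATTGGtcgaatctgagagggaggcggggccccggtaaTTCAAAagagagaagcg
Cdc20 holds 1 CHR element and 2 CCAAT boxes, and Kif22 holds 2 of each, with no overlap between the motifs. CCAAT lies in the window in 54.7% of genes called lower, 47.1% of genes called higher and 39.9% of tested genes, and TTTGAA in 15.6%, 23.5% and 13.1%.

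Several of the largest changes lie outside the lists described so far. Tm6sf1, a lysosomal membrane protein, had 633.2, 435.3 and 213.6 at 12 h, against 161.7, 111.6 and 122.4 at 0 h (change 1.40, adjusted p = 0.0121), and its second probe set rose by 1.23. Rab40b, a small GTPase, had 128.5, 101.9 and 239.5 at 12 h, against 33.9, 33.9 and 58.5 at 0 h (change 1.33, adjusted p = 0.0255). The acyltransferase Mboat2 had 2344.7, 2736.3 and 1808.6 at 12 h, against 916.3, 1248.3 and 968.9 at 0 h (change 1.11, adjusted p = 0.0321). Aspa, aspartoacylase, had 164.6, 172.1 and 186.7 at 12 h, against 57.2, 59.1 and 83.1 at 0 h (change 1.10, adjusted p = 0.0217). None of these groups overlapped. Klf5, a transcription factor known to take part in muscle differentiation, had 3259.9, 3067.7 and 2457.7 at 12 h, against 1548.3, 1614.6 and 1643.8 at 0 h (change 0.85 ± 0.12, adjusted p = 0.00343). On B the ciliary protein Cfap52 had 815.8, 755.1 and 1065.8 at 12 h, against 82.2, 251.3 and 405.7 at 0 h (change 1.79, adjusted p = 0.0498, and 0.0738 with the block). Also on B, 1 probe set of Dclk1, a microtubule-binding kinase, rose by 1.19 (adjusted p = 0.0498, and 0.0738 with the block). The second Tm6sf1 call was lost without a 12 h array of replicate 1 or 2 or the 0 h array of replicate 2 (adjusted p up to 0.0551). The first Tm6sf1 call and those of Rab40b, Mboat2, Aspa, Cfap52 and Dclk1 were lost without the 12 h array of replicate 1 or the 0 h array of replicate 1 or 2 (adjusted p up to 0.223). The first Tm6sf1 call was also lost without the 12 h array of replicate 2, and the Rab40b call without the 12 h array of replicate 3. Those of Mboat2, Aspa and Cfap52 held only without the 0 h array of replicate 3, and that of Dclk1 was lost whichever array was left out.

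Among such falls, Asb4, a subunit of a ubiquitin ligase, had 401.3, 428.5 and 261.8 at 12 h, against 945.9, 925.7 and 543.5 at 0 h (change -1.07 ± 0.121, adjusted p = 0.000501). Foxc2, a forkhead factor of mesoderm, had 433.9, 413.8 and 552.8 at 12 h, against 883.3, 948.9 and 1103 at 0 h (change -1.03 ± 0.146, adjusted p = 0.00343). Pdk4, which restrains the entry of pyruvate into the citric acid cycle, had 1004.8, 1081.1 and 437.5 at 12 h, against 2228.4, 1775.7 and 980 at 0 h (change -0.98 ± 0.143, adjusted p = 0.00437). The hours do not overlap for Asb4 and Foxc2 and overlap for Pdk4, whose replicate 3 was low at both hours, and all 3 calls held whichever array was left out. Tlcd3a, on B, had 147.5, 197.2 and 1369.4 at 12 h, against 693.5, 877.2 and 2131.7 at 0 h (change -1.47, adjusted p = 0.0498, 0.0738 with the block, and up to 0.206 when 1 of 5 arrays was left out).

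For some large falls the other probe sets of the gene were not called. Fadd, an adaptor of death receptors, fell on B, with 76.5, 54.6 and 102.8 at 12 h, against 487.1, 437.9 and 298.5 at 0 h (change -1.80, adjusted p = 0.03), but its A probe set had 314.3 ± 35.21 at 12 h, against 314 ± 73.52 at 0 h (adjusted p = 0.981). Of 4 probe sets for Fam193a, 1 fell by 2.01 (adjusted p = 0.0401, and 0.0538 with the block) and the other 3 had changes of -0.70 to -0.03, not called. Asap1, a regulator of Arf GTPases, fell in its dimmest probe set, with 42, 26.1 and 61.3 at 12 h, against 144.7, 101 and 171.3 at 0 h (change -1.23, adjusted p = 0.0142), while 2 brighter ones had -0.09 and -0.29, not called. Which transcripts each probe set reads was not tested. All 3 calls were lost without a 12 h or 0 h array of replicate 1 or 2 (adjusted p up to 0.141, 0.166 and 0.0859). That of Fam193a was lost whichever array was left out.

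To see what sets 12 h apart within the series, it was also compared with the mean of the other 4 hours in the batch fit. That called 16 of 13576 probe sets on A (0.118%) and 4 of 13507 on B (0.0296%), and for 8 named genes on A 12 h was the highest of the 5 hourly means. Parm1, a membrane glycoprotein, had hourly means of 1632, 1724, 2532, 1624 and 820.4 at 0, 4, 12, 24 and 48 h, and its 12 h arrays had 3257.5, 2634.4 and 1704.6 (difference 0.96, adjusted p = 0.0213). Car2, carbonic anhydrase 2, had hourly means of 318.9, 356.1, 431.9, 124 and 126.3 (difference 0.95, adjusted p = 0.00709). The proto-oncogene Mycl had 1071, 1053, 1267, 722.4 and 292.7 (difference 0.79, adjusted p = 0.00553), and the imprinted gene Mest 6305, 7108, 7574, 4386 and 2693 (difference 0.72, adjusted p = 0.0146). For Car2, Mycl and Mest the difference between 24 h and 12 h is larger than that between 12 h and 0 h, and none of the 4 genes was called against 0 h itself (adjusted p = 0.108, 0.245, 0.536 and 0.209 in the order given).

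Genes lowest at 12 h were few. Kif22 had hourly means of 2059, 1483, 987.7, 1001 and 1526, so that 12 h and 24 h were nearly alike (difference -0.58, adjusted p = 0.0189). The called probe set of Asap1 had 139, 122.6, 43.13, 83.77 and 202.7 (difference -1.15, adjusted p = 0.0146). Ano1, a calcium-activated chloride channel, had 1068, 931.3, 489.7, 1506 and 2032 on B (difference -1.28, adjusted p = 0.0152), with the lowest value of each replicate at 12 h. Spire1, an actin nucleator, had 396.7, 405.4, 128.6, 480.3 and 863.7 (difference -1.66, adjusted p = 0.0204) in 1 of 5 probe sets. The other 4 Spire1 probe sets changed between 0 and 12 h by -0.10 to 0.15, not called. Between 12 h and 0 h alone, Ano1 (adjusted p = 0.095) and this Spire1 probe set (adjusted p = 0.0779) were not called either.

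**Figure D3:**
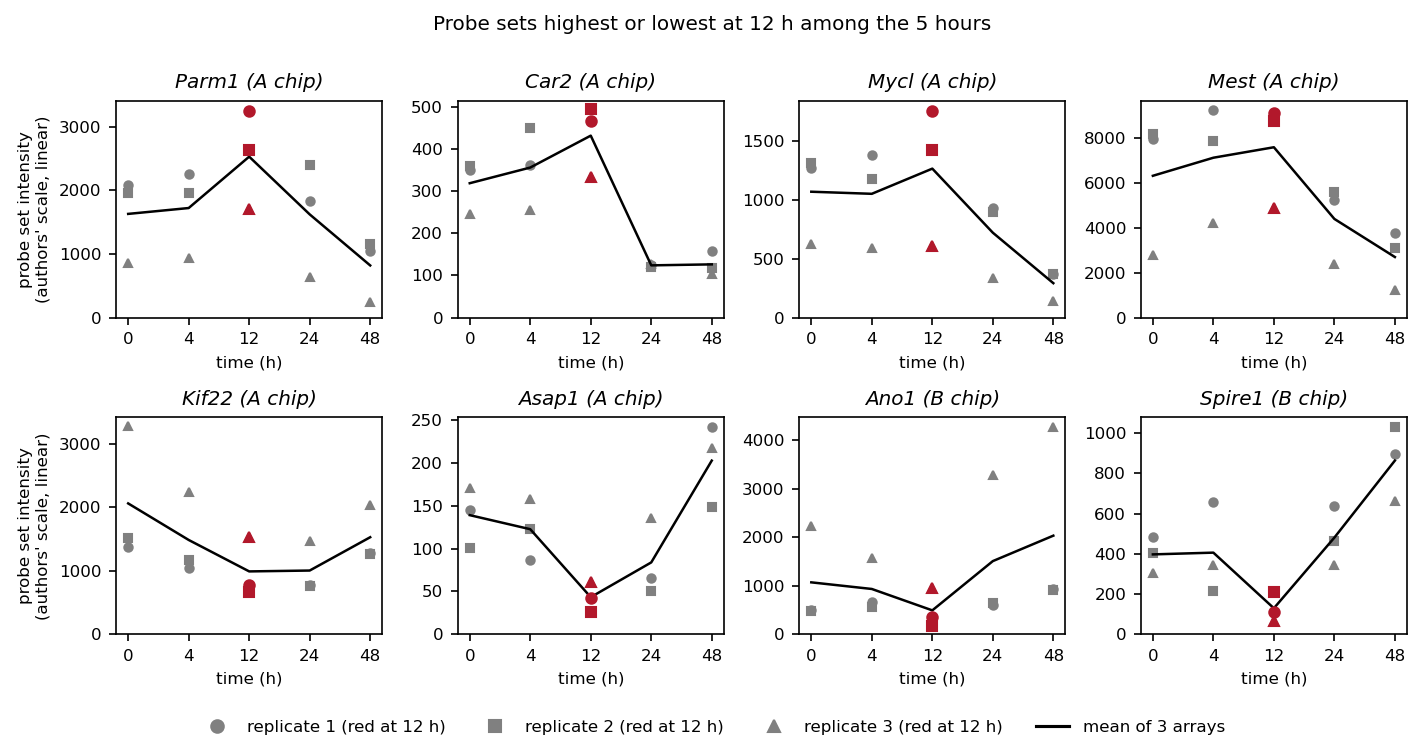
Probe set intensity (linear, the authors' scale) at 0, 4, 12, 24 and 48 h for the 8 probe sets named as highest (upper row) or lowest (Kif22, Asap1, Ano1 and Spire1) at 12 h; points are arrays (red at 12 h), with a marker for each replicate, and lines join the means of 3 arrays. The mean of Car2 is 431.9 at 12 h and 124 at 24 h, and that of Spire1 is 128.6 at 12 h and 480.3 at 24 h.

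Most probe sets called at 12 h had a more extreme hourly mean at another hour. This ranks means of 3 arrays, the hours were not tested against each other here, and near ties count. For example, the Nfkbia probe set with the smallest adjusted p had 494.1 at 12 h and 493.9 at 24 h. Of the 90 called higher on the 2 chips, 64 had their highest hourly mean at 24 h. The highest came at 12 h for 13 others, at 48 h for 12 and at 4 h for 1. Of the 97 called lower, 56 had their lowest mean at 24 h. For 33 it came at 12 h, and for 8 at 48 h. Fgf21 had hourly means of 552.3, 809.8, 1951, 3025 and 843.4, and the first B probe set of Vegfc 1961, 1624, 469, 305.5 and 423.2. The 0 h arrays are common to all comparisons with 0 h, so these series share their chance deviations.

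Lastly, the change itself was compared between replicate 3 and replicates 1 and 2 in a fit with that interaction. It differed for 9 probe sets on A (0.0663% of those tested) and for 0 on B (0%, 815 at an unadjusted p under 0.05), with 1 array of replicate 3 an hour assumed to vary like the others. The batch fit gives all replicates 1 common change, so a probe set whose change differs in replicate 3 is hardly called there. That no probe set called in the batch fit was among those that differed is therefore no test of agreement. Gsta4, a glutathione transferase, had 1601.1, 1388 and 477.5 at 12 h, against 307.2, 306.4 and 551.9 at 0 h, so it was higher in replicates 1 and 2 and not in replicate 3 (difference of the changes -2.38 ± 0.29, adjusted p = 0.0167). Srxn1, sulfiredoxin, an antioxidant enzyme, had 897.3, 852 and 277 at 12 h, against 320.9, 430.4 and 537 at 0 h (difference -2.06, adjusted p = 0.0293), and Fgfbp1, a carrier protein of fibroblast growth factors, had 495.5, 519.1 and 289.8 at 12 h, against 106.3, 95.5 and 268.7 at 0 h (difference -1.95, adjusted p = 0.0312). In the other direction, Myl9, a smooth muscle and non-muscle myosin light chain, had 384.5, 449 and 627.8 at 12 h, against 790.6, 949.7 and 326.2 at 0 h (difference 1.90, adjusted p = 0.0312). Lxn, latexin, a carboxypeptidase inhibitor, had 389.1, 388.8 and 498.1 at 12 h, against 978.7, 915.5 and 307.7 at 0 h (difference 1.87, adjusted p = 0.034). The largest difference, 2.52 for Rbbp4, a histone-binding protein (adjusted p = 0.00522), rests on 1 array, that of replicate 3 at 0 h, with 791.5 where the other 5 had 2557.8 to 3791.1, and the 3 other tested Rbbp4 probe sets had changes of -0.08 to 0.03.

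**Figure D4:**
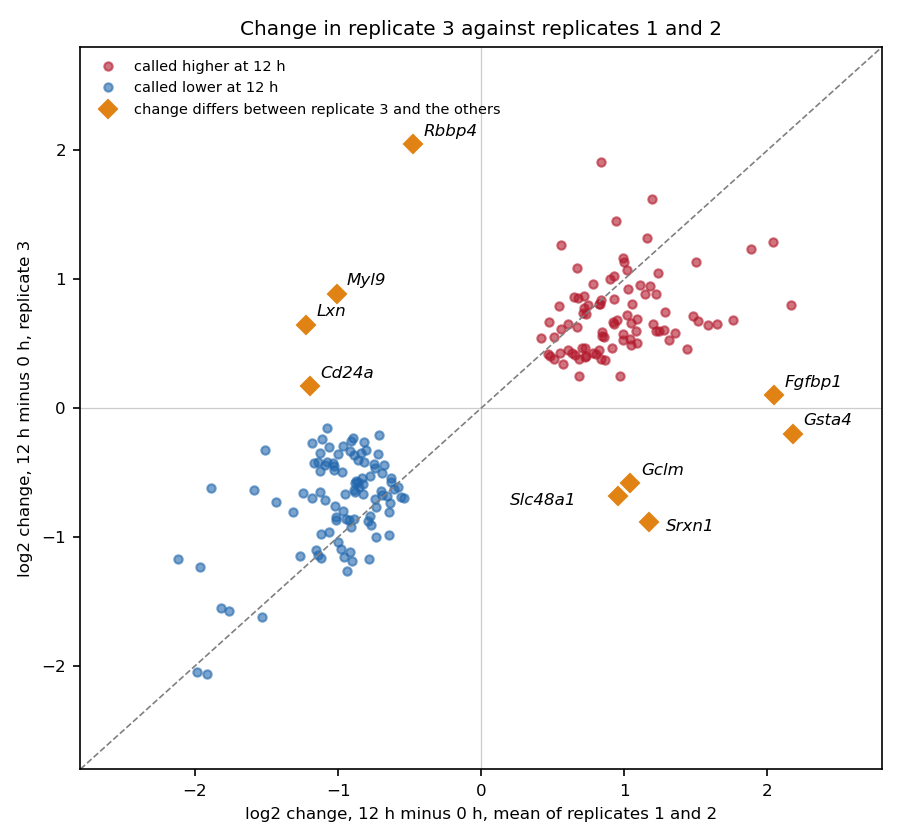
Log2 change, 12 h minus 0 h, in replicate 3 (vertical axis) against the mean of the changes in replicates 1 and 2 (horizontal axis) for the 187 probe sets called in the batch fit (red higher, blue lower) and the 9 whose change differed between replicate 3 and the others (orange, named); the dashed line marks equal change. The called probe sets keep 1 sign on both axes, which their selection favours, and the orange ones lie where the signs differ or replicate 3 is near 0.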

How the data were processed

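RNA of the cultures was hybridised to the A and B chips of an Affymetrix set, by the maker's standard protocol per the labels. The deposited values are linear intensities, 1 per probe set, on a scale that the values themselves put at a common 2%-trimmed mean per array; the sources used here name neither the software nor its settings, and the number of arrays limits the precision. Every sample was assigned to its hour by its title. On each chip 64 control probe sets were left out and the upper 60% by mean intensity were tested (13576 on A, 13507 on B). Values were taken as log2 of intensity plus 29 on A and 54 on B, the 20th percentile of each chip. All 15 arrays of a chip entered limma 3.58.1 in R 4.3.3 (lmFit, eBayes with trend), without and with replicate 3 as a batch term, with Benjamini-Hochberg adjustment over each chip. The steps were tested on simulated data.

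Gene names came from the platform annotation. Probe sets with several genes numbered 691 on A and 245 on B, unnamed ones 1555 and 7605, and none of these was named. Lists used 1 probe set per gene, the brightest, from A where A had one. Same-numbered arrays at the 2 hours deviated together on A (correlations 0.32, 0.36 and 0.64), and not all did on B (0.02, 0.11 and 0.37). Crossed numbers of replicates 1 and 2 on A correlated as highly (0.36 and 0.31). The values thus set replicate 3 apart but do not pair 1 with 1 or 2 with 2. No source says what a replicate number marks, so a pair here means only arrays of the same number. The fit with the block takes these numbers as given.

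The genes named were those called without the batch term; the 12 largest rises and falls on A and 5 on B; a set of myogenic and cell cycle genes; up to 4 members of each list by adjusted p and up to 2 against its majority; and those of the 2 further comparisons. Some others, such as Klf5, Pdk4, Cdca8, Col2a1 and the genes with 2 differing probe sets, were chosen after their values were seen. Members and lists were chosen with earlier results of these data known.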

Additional observations from a re-analysis of the deposited data

How the results depend on the processing

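The counts of called probe sets depended on the settings more than the direction of single genes did. In the batch fit the counts on A and B were 141 and 41 after quantile normalization, 114 and 38 after median centring, 137 and 32 with the added constant at 0.5 times its value, 157 and 51 at 4 times, 131 and 31 with a constant of 1, 84 and 17 without the intensity filter, 186 and 51 over the upper 40%, 313 and 21 with the 0 h and 12 h arrays alone, 74 and 2 without the trend, 394 and 93 with array quality weights, 36 and 17 at 2-fold or more, and 96 and 24 with the replicate block. Leaving out 1 array gave 15 to 330 on A and 2 to 37 on B. Without the batch term 0 probe sets were called on A and 1 on B. A gave 2 at 4 times the constant, 2 without the filter, 152 with weights, 96 with the replicate block and 568 in replicates 1 and 2 alone. On B they were 0 with a constant of 1, without the filter, with the 0 h and 12 h arrays alone and without the trend, and 5 with weights, 24 with the replicate block and 84 in replicates 1 and 2 alone. Leaving out 1 array gave 0 to 1 on both. Of the B calls 36.4% were higher at 12 h, against 48.8% after quantile normalization and 18.4% after median centring. Against the mean of the other hours A gave 4 and B 0 without the trend, and B 2 with a constant of 1. For replicate 3 against replicates 1 and 2, A gave 5 after median centring, 1 without the filter, 14 over the upper 40% and 0 without the trend, and B gave 2 with a constant of 1. Some signs turned, for genes not called or between probe sets of a gene. The change of Myod1 was -0.03 after quantile normalization in both fits, and without the batch term -0.01 with weights and -0.11 in replicates 1 and 2 alone. That of Rbbp4, without the batch term, was 0 with weights and -0.47 in replicates 1 and 2 alone, and its other probe sets had -0.08 and -0.04. With 1 array left out, Myod1 ranged from -0.08 to 0.11 and Rbbp4 from -0.42 to 0.70 in the batch fit. Without the batch term the ranges were -0.17 to 0.19 for Myod1, -0.37 to 0.74 for Rbbp4, -0.14 to 0.65 for Mest, -0.16 to 0.63 for Mycl and -0.48 to 0.22 for Myf6. The counted probe set of Tacc3 had, without the batch term, -0.03 with weights and -0.21 in replicates 1 and 2 alone, and with 1 array left out ranged from -0.23 to 0.34 in the batch fit and from -0.06 to 0.30 without the term. Other probe sets had -0.81 for Tacc3, 0.80 for Mcm5, -0.04 for Des, -0.18 for Atp2a2, 0.02 for Fadd, 0.12, 0.15 and 0.03 for Spire1, and 0.26 for Tpm3. The median of the vessel growth factor list was -0.02 over the upper 40%, and ranged from -0.08 to 0.18 with 1 array left out. The cause of these shifts was not tested. On A crossed numbers of replicates 1 and 2 correlated as highly (0.36 and 0.31) as same-numbered ones.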

Other observations

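Lists not described above held few calls. Of the 25 other lists 20 had 0 called genes, 4 had 1 and 1 had 2, and their medians lay between -0.37 and 0.15. The 17 tested genes of fatty acid synthesis had a median of -0.37 and the 20 of cholesterol synthesis and uptake one of -0.26, with 18 of the 20 lower in mean at 12 h and 0 called (0.924% of all genes were called). In the pair of replicate 3 the cholesterol genes had a median of 0.12, with 7 of 20 lower, against -0.55 and -0.36 in the pairs of replicates 1 and 2, with 18 lower in each. Of 53 oxidative phosphorylation genes 44 had a higher mean at 12 h, with a median of 0.10 and 0 called. Their medians in the pairs of replicates 1, 2 and 3 were 0.21, -0.04 and 0.15, and 33 of the 53 were lower in the pair of replicate 2. Ctsh, a lysosomal protease, was the 1 gene of the lysosome and autophagy list that fell (-0.59, adjusted p = 0.0446, 0.0633 with the replicate number as a block, and lost whichever array was left out, up to 0.206). Tgfb3 was the 1 gene called of 21 tested in the BMP and TGF-beta pathway list. It rose by 0.76 (adjusted p = 0.0103, and 0.0169 with the block). This call was lost without the 12 h array of replicate 2 or the 0 h array of replicate 1 or 2 (adjusted p up to 0.0772).

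A list of 39 antioxidant and glutathione genes was drawn up after the values of Gsta4, Srxn1 and Gclm had been seen, so it carries no test. Of the 31 tested, 24 had a lower change in replicate 3 than in replicates 1 and 2, against 6527 of all 12446 genes. Replicates 1 and 2 had a median change of 0.37, and replicate 3 one of -0.12 (0.01 and -0.03 over all genes). Hmox1, heme oxygenase, had 2292.3, 2122.7 and 376.6 at 12 h, against 664.6, 561.8 and 269.4 at 0 h. Nqo1, a quinone reductase, had 942.2, 1009.9 and 549.4 at 12 h, against 487.3, 450.2 and 729.3 at 0 h. In both genes replicates 1 and 2 were higher at 12 h than at 0 h. In replicate 3 Nqo1 was lower at 12 h, and Hmox1 was low at both hours and somewhat higher at 12 h (change 0.443). The change in replicate 3 minus that in replicates 1 and 2 was -1.361 for Hmox1 and -1.405 for Nqo1. Neither difference was called in the fit with the interaction.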
